A study of Caenorhabditis elegans with 2 samples.

Results

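The genes examined were the ubiquitin conjugation and ligase genes of Caenorhabditis elegans, selected by symbol from the WBcel235 (ce11) annotation. They comprised every protein-coding gene with a symbol beginning ubq-, ubc-, cul-, rbx- or skr-, plus lin-23, which made 52 of 19973 protein-coding genes. These were 2 ubq, 21 ubc, 6 cul, 2 rbx and 20 skr genes and lin-23. Binding was mapped by ChIP-seq of a tagged transcription factor in mixed sex whole larvae at stage L3, from strain OP355, which carries unc-119(tm4063) III and the transgene wgIs355. Both biological replicates were of this 1 kind, so no groups could be compared. The labels disagree on the target, with mdl-1 under antibody and strain and ZK337.2 in the description, so the protein is called the tagged factor. What drives the transgene was not given, and in whole animals the cells that contribute a region cannot be told apart.

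Ubiquitin is attached to proteins by a cascade in which an E1 enzyme activates it, an E2 (ubc) enzyme carries it and an E3 ligase picks the substrate. In cullin-RING ligases a cullin scaffold holds a RING protein (rbx) that binds the E2, and an adaptor that binds a substrate receptor. In the SCF ligase the adaptor is a Skp1-related (skr) protein and the receptor an F-box protein such as LIN-23. Chains of ubiquitin commonly send proteins to the proteasome, and in worm larvae cullin ligases limit cell division and remove cell fate regulators.

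Regions were assigned to a gene when their summit lay from 5000 bp upstream to 200 bp downstream of its annotated 5′ end. The signal is the authors' own peak score, which has no stated scale and was used only to rank and describe regions within a list. The IDR, pooled, replicate 1 and replicate 2 lists held 1015, 30000, 15898 and 30000 regions. The IDR list holds the regions retained as reproducible by irreproducible discovery rate, and was made from the other lists. The pooled list was deposited as peaks and background for input to IDR. A pooled region outside the IDR list therefore cannot be told apart from background. Among the 1015 IDR regions the lowest signal was 25.9, the median 39.4 and the highest 539. The depth of sequencing is unknown.

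Reproducible summits lay in the windows of 1 ubiquitin gene, of E2 genes, of 1 cullin and of lin-23, and of no RING or Skp1-related gene. For the summits in the ubq-1 and cul-5 windows, the nearest protein-coding 5′ end was that of another gene. An IDR summit lay in the window of 7 of the 52 genes (13.5%, exact 95% interval 5.59 to 25.8), against 6.04% of all protein-coding genes. The interval includes the share over all genes, so the excess was within counting error. Without lin-23, which was added by name, the count was 6 of 51 (11.8%, interval 4.44 to 23.9). The 7 genes were ubc-8, lin-23, ubc-25, ubc-7, ubc-3, ubq-1 and cul-5, which is 4 of 21 ubc genes, 1 of 2 ubq genes, 1 of 6 cullins and lin-23. Of the 20 skr genes 0 had one (upper 95% limit 16.8%), and of the 2 rbx genes 0 had one (upper limit 84.2%), so neither count was distinguishable from the share over all genes. With a window of only 1000 bp upstream, 4 of the 52 genes kept a summit (lin-23, ubc-25, ubc-7 and ubc-3), against 2.52% of all genes. No interval was computed for this count, which includes lin-23, so no excess can be read from it.

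**Figure D1:**
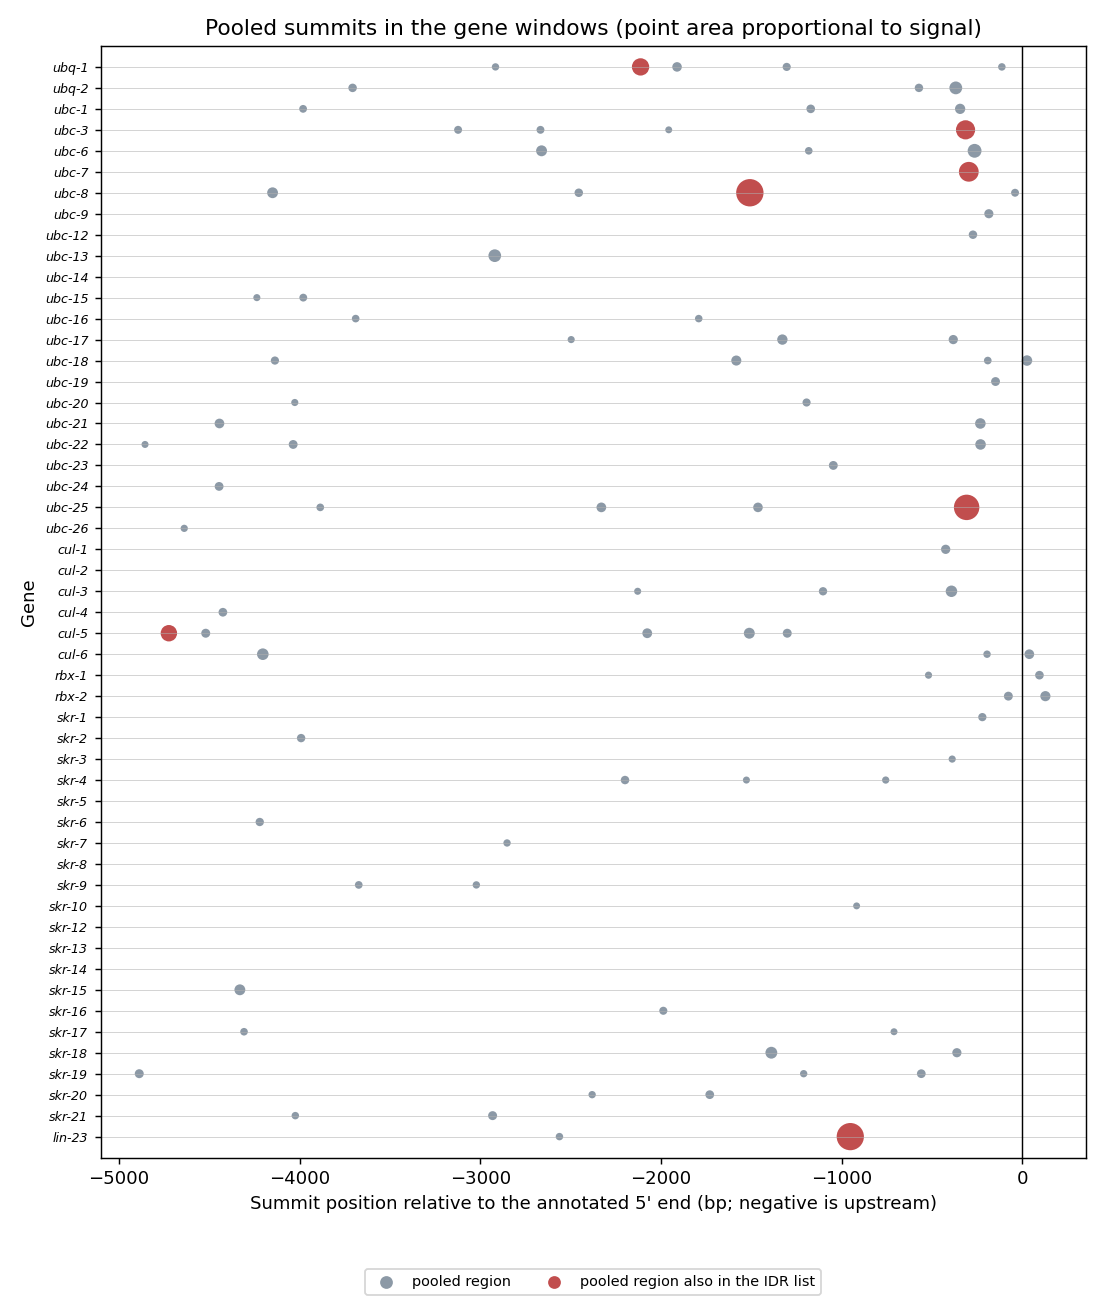
Position of each pooled summit (x axis, bp from the annotated 5′ end, negative upstream) at each of the 52 genes (y axis), with point area proportional to signal and red marking regions also in the IDR list. The red summits of ubc-3, ubc-7 and ubc-25 lie 296 to 314 bp upstream, while that of cul-5 lies 4724 bp upstream.

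The sequences around 4 reproducible summits and the cul-3 summit are shown because they bear on which sequence elements these regions hold. Each is 201 bases of the plus strand of RefSeq's WBcel235 genome, centred on a summit. Capitals mark matches on either strand to 4 motifs. The first is CACGTG, the E-box of Myc, Mad and Max proteins, and the second is its variant CACGCG. The third is the repeat GAGAGA. The last is the element CTGCGTC. Positions are chrIV:2708646-2708846 for ubc-8, chrII:6370251-6370451 for lin-23, chrIII:9631363-9631563 for ubc-7, chrIII:5940547-5940747 for the ubq-1 intron and chrV:176925-177125 for cul-3.
ubc-8: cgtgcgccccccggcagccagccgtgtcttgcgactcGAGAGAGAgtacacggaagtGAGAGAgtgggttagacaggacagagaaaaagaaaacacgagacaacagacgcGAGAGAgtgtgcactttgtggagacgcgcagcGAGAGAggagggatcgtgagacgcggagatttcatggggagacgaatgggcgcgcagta
lin-23: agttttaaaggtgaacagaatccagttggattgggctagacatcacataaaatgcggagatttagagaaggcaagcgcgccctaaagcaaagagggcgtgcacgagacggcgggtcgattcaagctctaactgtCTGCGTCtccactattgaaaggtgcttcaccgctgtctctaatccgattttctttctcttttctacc
ubc-7: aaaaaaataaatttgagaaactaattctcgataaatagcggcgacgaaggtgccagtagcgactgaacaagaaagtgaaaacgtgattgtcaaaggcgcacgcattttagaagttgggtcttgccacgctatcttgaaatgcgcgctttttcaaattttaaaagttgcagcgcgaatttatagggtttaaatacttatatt
ubq-1 intron: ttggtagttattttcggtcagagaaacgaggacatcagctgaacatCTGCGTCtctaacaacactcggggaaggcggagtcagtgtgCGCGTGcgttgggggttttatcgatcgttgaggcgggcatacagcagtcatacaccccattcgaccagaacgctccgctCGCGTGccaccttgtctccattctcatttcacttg
cul-3: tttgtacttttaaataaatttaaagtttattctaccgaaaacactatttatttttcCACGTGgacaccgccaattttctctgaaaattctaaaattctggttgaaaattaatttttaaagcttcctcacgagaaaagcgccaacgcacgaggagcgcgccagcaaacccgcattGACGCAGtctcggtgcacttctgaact
The ubc-8 sequence is rich in GAGAGA, the lin-23 sequence has a single CTGCGTC, and the ubc-7 sequence has none of the 4 motifs. The cul-3 sequence is the only one of these 5 with CACGTG, and it also has a CTGCGTC on the minus strand.

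Polyubiquitin came first. The gene ubq-1 (WBGene00006727, chrIII:5940254-5943841, plus strand) encodes a head-to-tail array of ubiquitin units, and ubq-2 encodes ubiquitin fused to a ribosomal protein. The IDR summit in the ubq-1 window (chrIII:5937959-5938322) lay 2113 bp upstream with a signal of 30.7, rank 774 of 1015. The nearest protein-coding 5′ end to it was that of EGAP1.1, on the other strand at 921 bp, so the region lay closer to a neighbour than to ubq-1. It ranked 558 in replicate 1, where its signal was 10.5, and 1310 in replicate 2, where its signal was 17.6.

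A second and higher IDR region lay at ubq-1 just outside the window. It (chrIII:5940465-5940828) had its summit 393 bp downstream of the 5′ end, in an intron, with a signal of 63.3, rank 218. Another annotated transcript of ubq-1 starts at 5940986, and the summit lay 339 bp upstream of that start. The region ranked 234 in replicate 1 (signal 16.8) and 199 in replicate 2 (signal 50.3), with replicate summits 111 and 0 bp from the IDR summit. It held 2 CACGCG and 1 CTGCGTC, shown above, and no CACGTG. This was the sole member with an IDR summit inside the gene body beyond the window. The closest IDR summit beyond the upstream limit was 7420 bp from ubc-15.

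At ubq-2 (chrIII:12977963-12978523, minus strand) there was no IDR summit. Its highest pooled region lay 368 bp upstream with a signal of 16.8, rank 2123, and was present in both replicate lists, at rank 3758 in replicate 1 and 1359 in replicate 2. Its signal was higher than the highest pooled signal of 87.9% of protein-coding genes, a gene with no region counting as 0.

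Among the E2 genes, 4 had an IDR summit and 3 of these summits lay about equally far from the start of the gene. At ubc-25, a homologue of the human UBE2Q enzymes (chrI:10562970-10564903, plus strand), the region chrI:10562480-10562843 had its summit 308 bp upstream and a signal of 66.2, rank 196. It ranked 205 in replicate 1 and 181 in replicate 2, with signals of 17.7 and 51.8. At ubc-7 (chrIII:9630097-9631167, minus strand) the region chrIII:9631281-9631644 had its summit 296 bp upstream and a signal of 40.0, rank 498. It ranked 493 and 677 in the replicates, with signals of 11.4 and 25.8. At ubc-3, a homologue of yeast Cdc34, the E2 of the SCF ligase (chrI:1698349-1701128, plus strand), the region chrI:1697853-1698216 had its summit 314 bp upstream and a signal of 37.6, rank 564. It ranked 219 and 893, with signals of 17.1 and 21.9. In all 3 cases the E2 gene had the nearest protein-coding 5′ end.

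The highest signal at any of the 52 genes was at ubc-8, a homologue of human UBE2H (chrIV:2704741-2707238, minus strand). Its region (chrIV:2708564-2708927) had a signal of 76.6, rank 136, and was intergenic, with its summit 1508 bp upstream. The replicates placed it differently. It ranked 101 in replicate 2 with a signal of 67.1 and a summit at the IDR summit, but 772 in replicate 1 with a signal of 8.92 and a summit 89 bp away. The nearest 5′ end was that of ubc-8. GC content of the 201 bases was 58.2%, against a median of 45.8% over all IDR regions, and it held 5 matches to GAGAGA, counting an overlapping pair.

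The other 17 E2 genes had no IDR summit. The highest pooled signals among them were 19.6 at ubc-6, whose yeast namesake is an endoplasmic reticulum enzyme, and 16.5 at ubc-13, which builds non-degradative chains. The ubc-6 region (chrII:7478741-7479104) lay 264 bp upstream and ranked 1087 in replicate 2, with no overlapping region in replicate 1. The ubc-13 region lay 2920 bp upstream, was closer to manf-1 (190 bp), and ranked 4279 and 3648 in the replicates. At ubc-9, the E2 of SUMO, the highest signal was 8.53, at ubc-12, the E2 of NEDD8, 7.37, and at ubc-1, the Rad6 homologue, 10.8. The median over all protein-coding genes was 7.60, and the ubc-1 value exceeded that of 73.4% of them. The neighbours ubc-21 and ubc-22 are divergently transcribed and shared 1 region (chrX:8869211-8869574, signal 11.4), 232 and 231 bp upstream of their 5′ ends. At ubc-14 there was no pooled region, and each replicate list held 2 regions in its window, of signal up to 2.36 in replicate 1 and 4.88 in replicate 2.

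**Figure D2:**
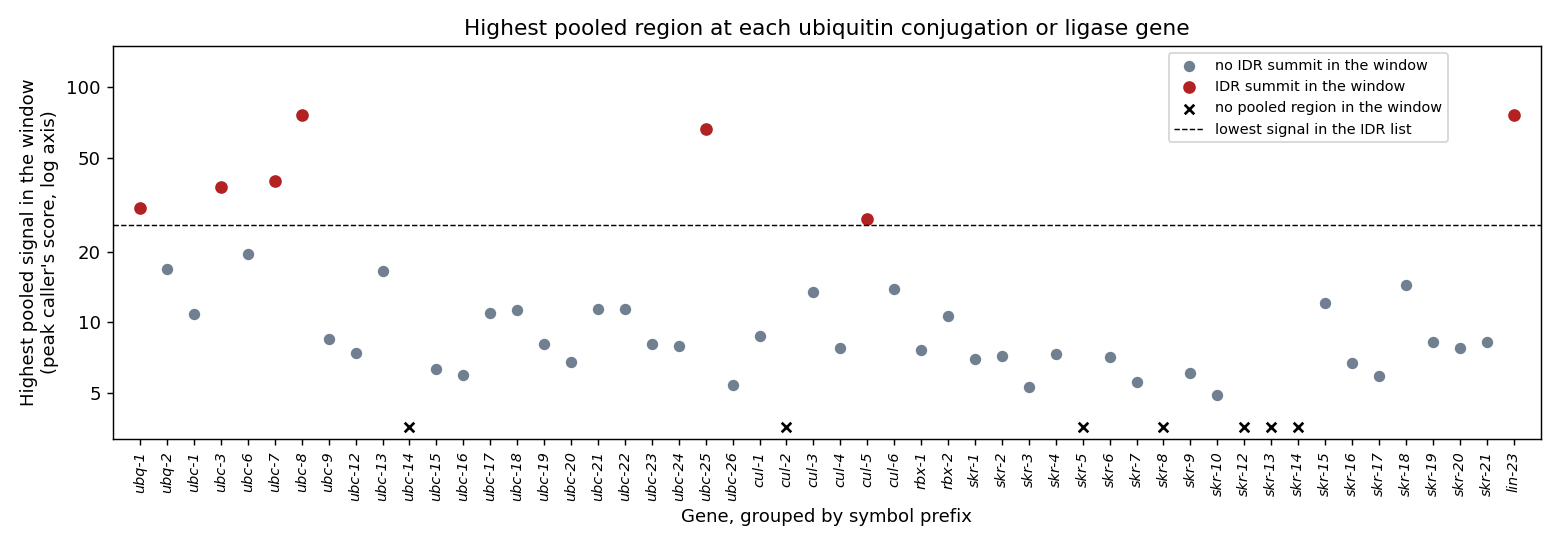
Highest pooled signal in the window of each gene (log axis, peak caller's score), with red points for genes that have an IDR summit and crosses for the 7 genes with no pooled region. The 7 red points lie above the lowest IDR signal of 25.9, and the highest grey point is ubc-6 at 19.6.

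Among the cullins only cul-5, the scaffold that pairs with RBX-2, had an IDR summit in its window, and it lay at the far end. The region (chrV:10174629-10174992) had its summit 4724 bp upstream of cul-5 (chrV:10179535-10183154, plus strand), with a signal of 27.6, rank 913. The nearest 5′ end was that of egl-3, a proprotein convertase gene on the other strand, at 1058 bp, and an annotated non-coding RNA gene, C51E3.12, started 260 bp away. The summits of the replicates differed. The replicate 1 region (signal 14.7, rank 303) had its summit 193 bp from the IDR summit, and the replicate 2 region (signal 26.5, rank 636) had its summit at the IDR summit.

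The other cullins were lower. At cul-3, the scaffold of ligases with BTB-domain receptors (chrV:177417-185172, plus strand), the highest region lay 392 bp upstream with a pooled signal of 13.5, rank 3285, and its CACGTG lay at chrV:176981-176986. It ranked 2772 in replicate 2 and was not listed in replicate 1. At cul-6, which acts in the response to intracellular pathogens, the highest region (signal 13.8) lay 4204 bp upstream and ranked 2562 in replicate 2, also with none in replicate 1. At cul-1, the SCF scaffold, the highest signal was 8.78, 424 bp upstream. At cul-4, the scaffold that uses DDB-1 and CDT-2, it was 7.80, 4425 bp upstream and nearer to puf-8 (571 bp). At cul-2, the scaffold of elongin ligases, there was no region in the window in the pooled list or in either replicate list. The RING genes rbx-1 and rbx-2 had highest signals of 7.65 and 10.6, with summits 95 and 128 bp downstream of their 5′ ends. The rbx-2 region ranked 7993 in replicate 2, and the rbx-1 region overlapped none in either replicate list.

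The Skp1-related genes were the lowest of the larger families. Their highest pooled signals had a median of 6.38 over 20 genes, from no region to 14.4 at skr-18, against medians of 10.8 over 21 ubc genes and 11.1 over 6 cullins. These differences between families were not tested. At skr-1, the main SCF adaptor, the highest signal was 6.97, 221 bp upstream. That region ranked 1569 in replicate 1 and was not listed in replicate 2. The skr-18 region (chrIV:796640-797003) lay 1389 bp upstream, was nearer to ech-5 (201 bp), and was listed in replicate 1 (rank 1970) but not in replicate 2. No pooled region lay in the windows of skr-5, skr-8, skr-12, skr-13 and skr-14. The genes skr-8, skr-9, skr-12 and skr-13 are clustered on chromosome IV, and skr-19, skr-20 and skr-21 on X share 3 pooled regions between pairs of them.

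Similar copies of a sequence affect where short reads can be placed, and the treatment of reads with several matches was not given. Of the 31-base words in each window, the share found once in the genome was lowest at skr-8 (55.2%), ubc-23 (61.8%), skr-13 (70.9%) and skr-12 (71.7%). Of these, ubc-23 had a pooled region (signal 8.07) and the 3 skr genes had none. The share was 94.1% at skr-14, 94.7% at ubc-14, 98.0% at skr-5 and 100% at cul-2, which also had no pooled region. The part of repeated sequence in these values was not tested.

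The F-box gene lin-23 (chrII:6371303-6374776, plus strand), a homologue of vertebrate beta-TrCP that restrains postembryonic cell division, was added to the list by name. Its value was known when the list was made, so it gives no separate support. The region chrII:6370169-6370532 had its summit 952 bp upstream and a signal of 75.9, rank 140. It ranked 71 in replicate 1 (signal 27.7) and 217 in replicate 2 (signal 48), with summits 4 and 0 bp from the IDR summit. In replicate 1 it ranked highest of the 7 regions. The nearest protein-coding 5′ end was that of lin-23, and the lincRNA gene linc-27 started 474 bp from the summit.

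The replicates both held all 7 regions. Each overlapped a replicate 1 and a replicate 2 region by at least 1 bp, as did 93.8% and 100% of all IDR regions. Of the 7, 6 overlapped one of the 1015 highest regions of both replicates, against 54.9% of the 739 IDR regions with a summit in any gene window. The exception was the region upstream of ubq-1, which ranked 1310 in replicate 2. No interval was computed for this count of 7 regions, and its difference from the 54.9% was not tested. The IDR list was made from these replicates, so the overlap is no independent check. Signal from separately called lists cannot be set side by side as a change.

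**Figure D3:**
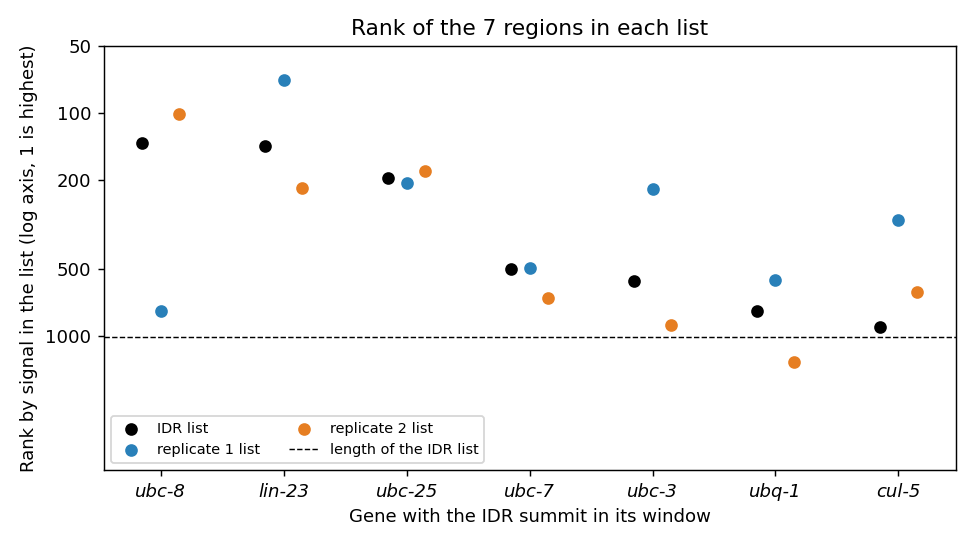
Rank by signal (log axis, 1 highest) of the 7 regions in the IDR list and of the overlapping regions in each replicate list, which differ in length. Ranks at ubc-25 lie between 181 and 205 in all 3 lists, while at ubc-8 they run from 101 in replicate 2 to 772 in replicate 1.

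The pooled list, deposited as peaks and background, and the replicate lists reached most of the genes, those with an IDR summit included. Pooled summits lay in the windows of 45 of the 52 genes (86.5%), against 77.7% of all protein-coding genes, and the 5000 highest pooled regions reached 16 (30.8%), against 24.0%. Replicate 1 regions lay at 33 (63.5%, against 56.0% of all genes) and replicate 2 regions at 43 (82.7%, against 78.6%). The exact 95% intervals of all 4 shares included the share over all genes. The windows held 91 different pooled regions, of which 82 overlapped no IDR region. Of those 82, 8 (9.76%, exact 95% interval 4.31 to 18.3) overlapped a region in both replicates, against 17.3% of all pooled regions that overlapped no IDR region, a share within that interval. Of the 38 genes with a pooled region but no IDR summit, the highest region overlapped regions in both replicates at 3 (ubq-2, ubc-13 and skr-20), in replicate 2 only at 25, in replicate 1 only at 3 and in neither at 7. The replicate 2 list is the longer one. The same split was not made over all protein-coding genes, so these counts cannot be set against a share over them.

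By location, 5 of the 7 summits (71.4%) lay within 1000 bp upstream or 200 bp downstream of some protein-coding 5′ end, with an exact 95% interval of 29.0 to 96.3. Over the 739 IDR summits that lay in the window of any protein-coding gene the share was 57.1%, within that interval. The other 2 summits, at ubc-8 and cul-5, were intergenic. The window ends 200 bp into a gene, so it leaves out summits deeper in the same gene, such as the one in the ubq-1 intron. The gene named was the one with the nearest 5′ end in 5 of the 7, the exceptions being ubq-1 and cul-5. Over all 1344 pairs of a gene and an IDR summit in its window, that share was 48.4%. It lay within 29.0 to 96.3, the exact 95% interval of 5 of 7. All 7 regions also lay in the window of at least 1 other protein-coding gene. Over the 739 IDR summits in any gene window, the mean was 1.82 genes per summit. The ubc-8 region was also in reach of Y94H6A.5 (4769 bp), the lin-23 region of ani-2 (4984 bp) and the ubc-25 region of pas-5, a proteasome subunit gene (3688 bp). The ubc-7 region was in reach of rpac-19 (1578 bp) and of tbg-1 (2309 bp), the gene of gamma-tubulin. The ubc-3 region was in reach of lsm-6 (3326 bp), Y71G12B.13 (4070 bp) and Y71G12B.31 (4578 bp). At ubq-1 and cul-5 the other genes were EGAP1.1 and egl-3. Worm mRNAs are often trans-spliced, so an annotated 5′ end can lie downstream of the transcription start.

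The E-box CACGTG was not found at the reproducible regions of these genes. Apart from CACGCG, other E-box forms were not searched. CACGTG was present within 100 bp of the summit in 0 of 7 regions (exact 95% interval 0 to 41.0), against 29.1% of the 739 IDR regions in any gene window, and the interval includes that share. The shares given beside the next motifs are over the same 739. CACGCG was in 2 of 7, at ubc-3 and cul-5 (28.6%, against 15.2%). CTGCGTC was in 3, at lin-23, ubc-25 and ubc-3 (42.9%, against 23%). GAGAGA was in 4, at ubc-8, ubc-25, ubc-3 and ubq-1 (57.1%, against 56.4%). Only the ubc-7 region had none of the 4, as had 20.6% of the 739, and its GC content of 37.3% was the lowest of the 7. The 7 had a median GC content of 47.8%. At ubc-3 the CTGCGTC and the CACGCG started 15 and 31 bp from the summit. At lin-23 the CTGCGTC started 34 bp from it.

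Among the 91 pooled regions, 4 (4.40%) had a CACGTG within 100 bp of the summit, against 5.40% of all pooled regions. They lay at cul-3, at ubc-20 (signal 5.23), at ubc-22 (5.06), and between skr-19 and skr-20 (7.81, in the windows of both). Of these, cul-3 had the highest signal.

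The pathway around these genes was described from 9 further lists with 161 entries. Of these, 23 (14.3%) had an IDR summit in the same window, against 13.5% of the 52 genes and 6.04% of all protein-coding genes. No interval was computed for the lists together. The first 2 shares are not independent, since the pas-5 and ubc-25 summits are the same region. The highest shares were in CDC-48 and its cofactors, which extract ubiquitinated proteins (4 of 13, 30.8%, exact 95% interval 9.09 to 61.4), and in other ubiquitin ligases (7 of 30, 23.3%, interval 9.93 to 42.3). These 2 intervals lay above the 6.04% of all genes. The CDC-48 list also held the ubiquilin gene ubql-1, which is among its 4 genes with a summit. Its share and interval without ubql-1 were not computed. The list of other ubiquitin ligases also held the SUMO ligase gene gei-17 and the TRRAP homologue trr-1, both without an IDR summit. With 9 lists described, no test was made. In the first list cdc-48.1, the segregase ATPase, had a signal of 117 with a summit 163 bp upstream. There ubql-1, a ubiquilin, had 98.2, ufd-3 had 49.3 and ubxn-3 had 35.9, and the regions of these 3 held a CACGTG. The ufd-3 summit lay 2937 bp upstream and was nearer to C05C10.3 (923 bp). The ubxn-3 region ranked 3292 in replicate 1, against 443 in replicate 2.

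Among the other ligases the 4 highest signals were at rnf-113 (224), nhl-2 (154), brc-1 (103) and lin-41 (46.2). At the first 3 the nearest 5′ ends were those of tasp-1, tag-340 and rpl-3. At lin-41, a TRIM-NHL gene of the heterochronic pathway, the summit lay 1447 bp upstream and the gene itself was nearest. The region of siah-1, which was also counted in this list, overlapped no region in replicate 1. For receptors and adaptors of cullin ligases the exact interval, 4.95 to 38.8, included the 6.04% of all protein-coding genes. In that list 4 of 23 had a summit (17.4%). These were mfb-1 (69.3, an F-box gene), zer-1 (38.9, a receptor of CUL-2), wdr-23 (37.6, a receptor of CUL-4 that acts on SKN-1) and elc-1 (27.3, the elongin C that joins CUL-2 to its receptors). The wdr-23 summit lay 43 bp upstream, and the elc-1 summit was nearer to Y82E9BR.3 (354 bp). The elc-1 region ranked 11265 in replicate 1, against 1145 in replicate 2.

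In the remaining lists the exact 95% intervals included the share over all genes. Ubiquitin-like proteins and E1 enzymes had 2 of 12 (uba-2 at 79.8 and ufm-1 at 65.2), with toe-4 and rpl-35 the nearest genes. The proteasome had 3 of 33 (pas-5 at 66.2, the region shared with ubc-25, rpn-8 at 54.4 and rpn-11 at 39.8). The anaphase-promoting complex had 1 of 14 (fzr-1 at 49.6). The list of deubiquitinating enzymes had 2 of 24 (otub-2 at 38.2 and ulp-4 at 27.5). That list also held ulp genes of SUMO proteases, ulp-4 among them. Cullin regulators had 0 of 9 and E2 variants 0 of 3. The nearest genes to the rpn-8, ulp-4 and fzr-1 summits were egg-5, ire-1 and sqv-8. The rpn-11 region overlapped no region in replicate 1. The ufm-1 and ulp-4 regions ranked 3162 and 5309 in replicate 1, against 140 and 1053 in replicate 2.

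**Figure D4:**
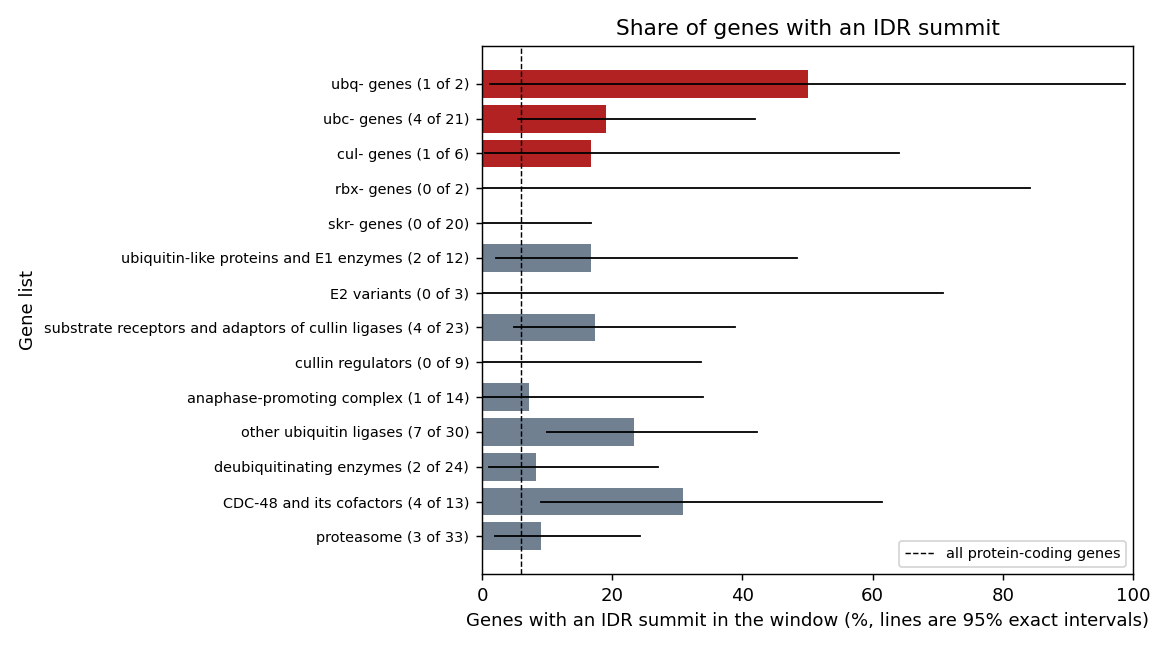
Share of genes with an IDR summit in the window (x axis, %) for the symbol families examined (red) and 9 further lists (grey), with exact 95% intervals as lines and the 6.04% of all protein-coding genes as the dashed line. Intervals of CDC-48 and its cofactors and of other ubiquitin ligases lie to the right of the dashed line. The CDC-48 list includes the ubiquilin gene ubql-1, and the deubiquitinating enzyme list includes SUMO protease (ulp) genes.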

How the data were processed

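ChIP-seq regions were analysed as deposited for build ce11. Per the deposited file descriptions, replicate lists were made from 1 replicate and a control, the pooled list from both replicates and a control, and the IDR list from those lists. The sources used here name no aligner, caller or cutoff. The deposited signal is a score of the authors' peak caller. The ce10 lists were not used here.

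Gene positions came from Ensembl release 115, which has the same assembly, and coordinates are 1-based. Motif matches on either strand counted when they lay at most 100 bp from the summit. Overlap meant at least 1 bp. Intervals are exact Clopper-Pearson intervals at 95% and cover counting error over genes or regions only. Genes are not independent, since neighbours share regions. No test was made. Window assignment and motif search were tested on simulated data. Named were all genes with an IDR summit, every ubq, cul and rbx gene, lin-23, the 6 others of highest pooled signal, those with no pooled region, up to 4 genes of each further list and the nearest gene to each IDR summit of the 52 genes. Any other gene was chosen with its values in view. The members and lists were chosen with earlier results of these data known. Calculations used Python 3.11.15, numpy 2.4.6, pandas 2.3.3 and scipy 1.17.1, with figures in matplotlib 3.10.9.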

Additional observations from a re-analysis of the deposited data

How the results depend on the processing

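The count of 7 genes with an IDR summit fell to 4 with a window of 1000 bp upstream and to 4 with the 507 regions of higher signal, and was 16 with the 5000 highest pooled regions. All of the 7 were among those 16. Over all protein-coding genes the share was 2.52% with 1000 bp and 24.0% with the 5000 highest pooled regions. For the other alternatives no share over all genes is given, so those counts cannot be set against it. With 2000 bp upstream, or with the nearest 5′ end only, 5 genes kept a summit, ubq-1 and cul-5 being the ones lost. With the 5′ end of any transcript the 7 genes were the same, and an eighth region, in the ubq-1 intron, was added. Without replicate 1 the count was 6, ubq-1 being the one lost, and without replicate 2 it was 7. Both counts used only the upper part of the remaining replicate's list, where the ubq-1 region ranked 1310 in replicate 2. The whole lists of replicate 2 and replicate 1 reached 43 and 33 of the 52 genes. The share of summits in promoter sequence is 100% by construction with 1000 bp upstream, since promoter sequence is defined by the same limits, and was from 62.5% to 66.7% without a replicate. The median signal of 40.0 became 53.1 with 1000 bp, 66.2 with 2000 bp, 66.2 with the nearest 5′ end, 51.6 with any transcript, 71.1 with those 507 regions and 38.8 with lin-23 left out, an alternative chosen after the data were seen. Each of these keeps or drops whole regions. Without a replicate it was 13.1 and 37.3, on the scales of single replicate lists. CACGTG was found in 0 regions in every alternative run, including 50 and 200 bp each side and the whole region. Requiring overlap over 50% of the IDR region, or summits within 100 bp, left 6 of 7 regions in replicate 1 and 7 in replicate 2. No paired analysis was possible because all samples belong to 1 group. Read depth is unknown, so an absent region cannot be told apart from one below detection.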

Other observations

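The essential E2 gene let-70 carries another symbol and was outside the rule, and was looked up after the other values were seen. The gene had an IDR summit 786 bp upstream with a signal of 28.3, rank 876, and its highest region in replicate 2 ranked 648. Its highest region in replicate 1 ranked 2285, with a summit 1025 bp upstream.

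Beyond the upstream limit of the window, IDR summits lay within the next 5000 bp at ubc-15 (signal 51.4), ubc-23 (50.9), ubc-25 (71.4), ubc-1 (32.3) and cul-1 (54.8). The ubc-25 and ubc-15 regions each held a CACGTG. The nearest 5′ ends were those of ndk-1 (15 bp) for ubc-25, atx-2 (41 bp) for cul-1, C28G1.2 (74 bp) for ubc-23, Y110A2AR.1 (1315 bp) for ubc-15 and C35B1.2 (7083 bp) for ubc-1. These were chosen after the data were seen.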
